A study of Homo sapiens with 9 samples.

Results

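Genes that carry the nucleoside analogue cytarabine into cells, activate it, inactivate it or set the nucleotide pools it competes with were followed in PRMT2 knockout clones of KG-1a cells. They are SLC29A1, SLC29A2, DCK, CMPK1, CDA, DCTD, NT5C2, SAMHD1, RRM1 and RRM2. All 10 were matched by symbol in the authors' deposited comparison table, among 60605 gene identifiers in the count files. Of the 10, 9 passed the filter on low counts, together with 20655 genes in all, and CDA did not. Their levels are given as counts per 1000000 (CPM), that is, a gene's read pairs per 1000000 assigned read pairs after TMM scaling, which corrects each library for its composition.

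Cytarabine (ara-C) is a cytidine analogue used against acute myeloid leukaemia. It enters cells mainly through equilibrative nucleoside transporters, is phosphorylated by deoxycytidine kinase (DCK) and then by cytidylate kinase (CMPK1), and acts as a triphosphate that DNA polymerases build into DNA. Deamination by CDA at the nucleoside step and by DCTD at the monophosphate step, dephosphorylation by NT5C2 and hydrolysis of the triphosphate by SAMHD1 work against it. RRM1 and RRM2 form ribonucleotide reductase, which makes the natural deoxynucleotides that compete with the drug and restrain DCK.

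KG-1a is a human acute myeloid leukaemia line of immature, CD34-positive cells. The tested cells carried a CRISPR/Cas9 knockout of PRMT2, a protein arginine methyltransferase, and came from knockout clone 1 (KO clone 1, 3 libraries) or knockout clone 2 (KO clone 2, 3 libraries). Their reference was wild-type KG-1a (WT, 3 libraries). All 3 groups grew in the same medium, and no group received cytarabine or any other drug, so the values describe untreated cells. Each knockout group is 1 clone, and the labels do not say whether WT cells were cloned or whether replicates were separate cultures. The p-values therefore measure the spread between libraries within groups, which may be technical, and they do not cover the spread between clones.

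The libraries held between 28006342 and 43149410 assigned read pairs, so that 3 counts in a library corresponded to between 0.0701 and 0.11 CPM. PRMT2 RNA averaged 20.7 ± 0.544 CPM in KO clone 1, 21.2 ± 0.153 CPM in KO clone 2 and 39.4 ± 0.393 CPM in WT (SD, n = 3 each), so transcripts of the targeted gene were lower in both clones but still present. KO clone 1 replicate 1 stood apart, with 13.33% of its pairs aligned at more than 1 place, where each of the other 8 libraries had between 3.86% and 4.51%. CD34 averaged 735 ± 21.4 CPM in KO clone 1, 765 ± 23.2 CPM in KO clone 2 and 626 ± 14.1 CPM in WT (SD, n = 3 each), and was called higher in both clones. PTPRC had log2 fold changes of -0.12 in KO clone 1 and -0.18 in KO clone 2, and FGFR1 of -0.14 in KO clone 1 and -0.18 in KO clone 2, all called lower by edgeR, while CD7, SPN and CD33 were not called. The 6 line markers CD34, PTPRC, CD7, FGFR1, SPN and CD33 summed to between 2320 and 2376 CPM in KO clone 1, between 2302 and 2363 CPM in KO clone 2 and between 2300 and 2348 CPM in WT, with CD33 itself between 0.37 and 0.65 CPM. The 15 markers of other cell types summed to at most 3.82 CPM in any library. Among them CSF1R was called lower in KO clone 1 against WT (-3.06, adjusted p = 0.000291, edgeR), on 4 counts in KO clone 1 and 43 in WT. It was not called in KO clone 2 (0.035, adjusted p = 0.965).

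SAMHD1, whose product hydrolyses the active triphosphate of cytarabine, was by far the member that differed most between knockout and WT cells. Its level was 12.1% of WT in KO clone 1 and 36.9% of WT in KO clone 2. The other changes were under 0.4 on the log2 scale, and each was called in 1 clone only. In KO clone 1 the transporter SLC29A1 fell and the reductase subunit RRM2 and the deaminase DCTD rose. In KO clone 2 the transporter SLC29A2 rose and DCK fell. A call in 1 clone does not make a change particular to it: all knockout libraries lay under WT for SLC29A1 and above WT for DCTD. DCTD was not called between the clones. CMPK1, NT5C2 and RRM1 passed the test in neither clone, and CDA was at or near 0 counts everywhere. In each clone against WT the share of members called was close to that of all tested genes, so it was no result about the members as a group. Of the 9 tested members, 5 were called between the clones, against 25.9% of all tested genes. In the mean of both clones 5 were called, against 35.3%. These shares were not tested.

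In KO clone 1 against WT, edgeR's quasi-likelihood test with Benjamini-Hochberg adjustment at 0.05 called 2 of the 9 tested members higher (DCTD and RRM2) and 2 lower (SLC29A1 and SAMHD1). The same rule called 36.2% of all 20655 tested genes, 17.4% higher and 18.8% lower, a share close to that of the members. In KO clone 2 against WT it called 1 member higher (SLC29A2) and 2 lower (DCK and SAMHD1), and 30.5% of all tested genes, 14.4% higher and 16.1% lower. The median log2 fold change of the 9 members was 0.03 in KO clone 1 and -0.003 in KO clone 2, beside 0.001 for all tested genes in KO clone 1. The 3 libraries of KO clone 1 did not overlap those of WT for 4 members, against 44.5% of all tested genes, and the 3 of KO clone 2 did not overlap those of WT for 5 members, against 40.5%. Only SAMHD1 also passed a fold minimum of 1 on the log2 scale, which 7.58% of all tested genes passed in KO clone 1 and 5.96% in KO clone 2. SAMHD1 was among the 628 genes, 3.04% of those tested, that fell by at least 1 on the log2 scale in both clones. Both clones were set against the same 3 WT libraries, so their values are given side by side and are not independent.

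**Figure D1:**
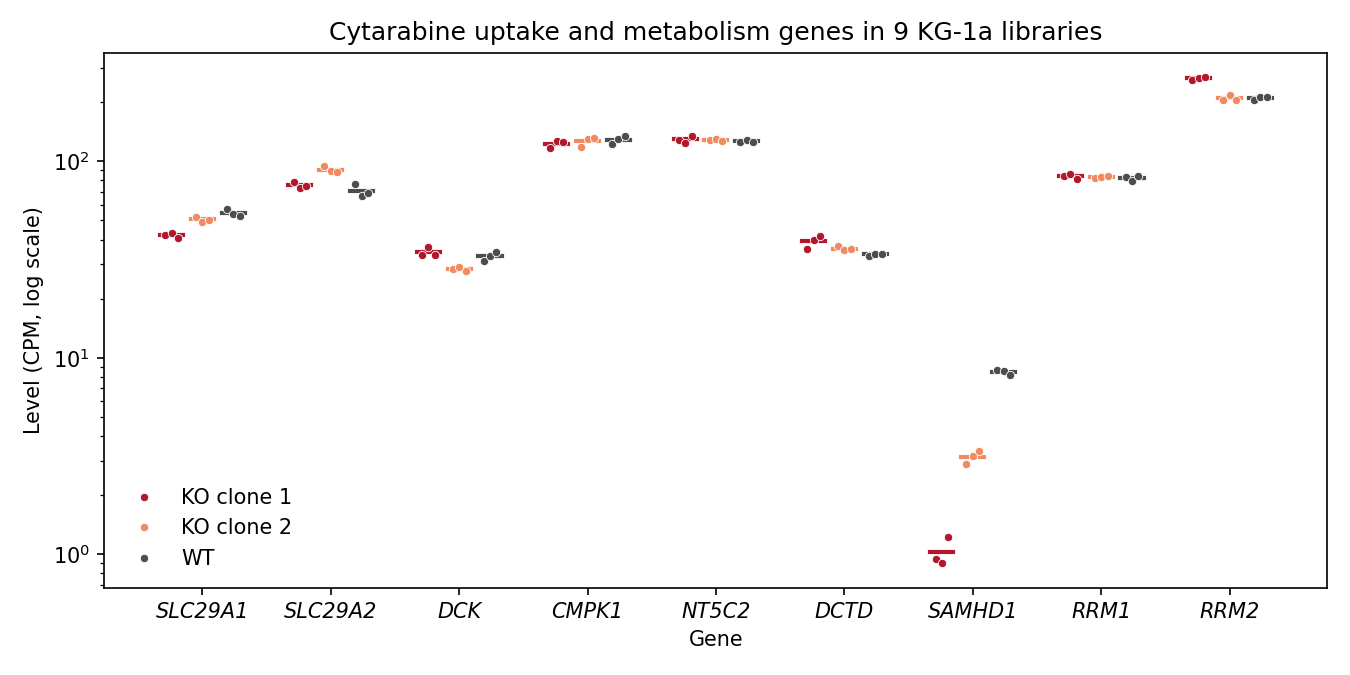
Level of the 9 tested genes in CPM on a log scale, for KO clone 1, KO clone 2 and WT, with 1 point per library and a bar at the group mean. SAMHD1 lies near 1.03 CPM in KO clone 1, 3.13 CPM in KO clone 2 and 8.49 CPM in WT, and the other genes differ far less between groups.

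SAMHD1 is a deoxynucleotide triphosphohydrolase that also restricts viruses in resting myeloid cells. The gene (ENSG00000101347) spans chr20:36890229-36951893 on the minus strand of GRCh38. Its libraries held 0.95, 0.90 and 1.23 CPM in KO clone 1, 2.88, 3.15 and 3.37 CPM in KO clone 2, and 8.66, 8.60 and 8.20 CPM in WT. The 3 groups did not overlap: every KO clone 1 library lay under every KO clone 2 library, and these lay under every WT library. The means were 1.03 ± 0.176 CPM in KO clone 1, 3.13 ± 0.241 CPM in KO clone 2 and 8.49 ± 0.253 CPM in WT (SD, n = 3 each), and rested on 95, 381 and 951 read pairs in all.

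The log2 fold change of SAMHD1 against WT was -3.04 in KO clone 1 (SE 0.149, adjusted p = 1.24e-20, edgeR) and -1.44 in KO clone 2 (SE 0.119, adjusted p = 2.57e-13). Without KO clone 1 replicate 1 the value for KO clone 1 was -2.99, and over all 15 settings tried it stayed between -3.19 and -2.94. In KO clone 2 it stayed between -1.49 and -1.38 over the same settings. Even in WT the gene was low: its level per kilobase of exon stood at percentile 25.9 of the tested genes, and the 8 other tested members stood at percentile 76.4 or above. In bulk RNA, less SAMHD1 RNA in every cell and fewer cells that hold it cannot be told apart. The annotated gene TLDC2 overlaps SAMHD1 on the opposite strand by 1068 exon bases, and the strand-aware counts gave TLDC2 between 0 and 0.0621 CPM.

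Because SAMHD1 was the lone member with a large change in both clones, and RRM2 the one with the clearest change in 1 clone, their promoters are shown with that of RRM1, the partner subunit of RRM2 that was not called. Each window holds the 250 bases before a RefSeq transcription start (GRCh38.p14), read 5′ to 3′ on the gene's strand. They are the 3 members whose windows hold CCAAT, the letters bound by NFY. Capitals mark CCAAT or GGGCGG, the letters bound by SP and KLF factors, on either strand.
SAMHD1, chr20:36951709-36951958, minus strand: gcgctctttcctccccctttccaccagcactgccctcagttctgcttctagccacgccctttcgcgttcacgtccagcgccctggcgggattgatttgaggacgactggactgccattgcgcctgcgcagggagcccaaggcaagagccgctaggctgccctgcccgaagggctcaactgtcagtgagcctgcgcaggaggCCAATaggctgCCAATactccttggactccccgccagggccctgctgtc
RRM1, chr11:4094435-4094684, plus strand: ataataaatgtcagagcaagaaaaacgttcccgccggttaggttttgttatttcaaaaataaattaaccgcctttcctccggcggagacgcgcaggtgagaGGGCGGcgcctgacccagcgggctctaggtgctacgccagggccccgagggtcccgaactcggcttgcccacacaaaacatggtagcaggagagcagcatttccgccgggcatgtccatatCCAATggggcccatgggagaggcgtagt
RRM2, chr2:10122489-10122738, plus strand: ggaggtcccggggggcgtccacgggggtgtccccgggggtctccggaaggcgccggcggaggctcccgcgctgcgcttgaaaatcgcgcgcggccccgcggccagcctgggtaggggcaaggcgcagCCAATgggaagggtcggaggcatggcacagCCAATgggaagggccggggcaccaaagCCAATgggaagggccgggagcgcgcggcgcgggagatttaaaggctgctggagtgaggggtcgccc

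In the SAMHD1 window CCAAT stands 49 and 38 bases before the start, in the RRM2 window 123, 93 and 66 bases before it, and in the RRM1 window 28 bases before it. RRM1 also holds GGGCGG 149 bases before its start. A further RRM2 window, for another annotated start, holds 1 CCAAT and 1 GGGCGG. The E2F letters TTTCCCGC, TTTGGCGC, TTTCGCGC and TTTGCCGC were found on neither strand of the 14 windows of the 9 members in the table, whereas GGGCGG or its reverse complement stood in 6 of the 9. Of 35116 promoters of the same length, 2.79% hold one of the E2F strings, 32.01% hold CCAAT and 42.64% hold GGGCGG. These are shares of single windows, whereas a member was counted for a hit in any of its windows, so the units differ. The strings searched do not overlap one another in the printed windows. Such matches describe the letters only.

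SAMHD1 lies among 14 other tested genes within 500 kb on either side, a window chosen after its values were seen. Their log2 fold changes ran between -1.67 and 0.59 in KO clone 1 and between -0.79 and 0.71 in KO clone 2. SOGA1 had the lowest value in both clones, at -1.67 in KO clone 1 (adjusted p = 8.78e-25, edgeR) and -0.79 in KO clone 2 (adjusted p = 3.25e-15), from a WT level of 37.8 CPM. It was the only neighbour to fall by more than 1 on the log2 scale in KO clone 1, and no neighbour did so in KO clone 2. DLGAP4 rose in both clones, by 0.59 in KO clone 1 and 0.71 in KO clone 2. SLA2 rose in both as well, by 0.40 in KO clone 1 and 0.16 in KO clone 2. Called in 1 clone only were RPN2 (-0.20) and RBL1 (0.11) in KO clone 1 and NDRG3 (-0.20) in KO clone 2.

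Of 11123 genes with a symbol and a mean of at least 5 CPM, PROZ had the centred log2 profile closest to that of SAMHD1 over the 9 libraries, with a root mean square difference of 0.118. PROZ averaged 4.99 CPM in KO clone 1, 15.9 CPM in KO clone 2 and 41.3 CPM in WT, and had log2 fold changes of -3.04 in KO clone 1 and -1.38 in KO clone 2. IL2RB followed at 0.155 and RRAGD at 0.156. This likeness is a description over 9 libraries in 3 groups.

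Uptake was represented by the equilibrative nucleoside transporters SLC29A1 (ENT1), the main carrier of cytarabine, and SLC29A2 (ENT2), which moves nucleosides and nucleobases. SLC29A1 (ENSG00000112759, chr6:44219553-44234142, plus strand) held 42.0, 43.4 and 40.8 CPM in KO clone 1, 52.4, 49.3 and 50.1 CPM in KO clone 2, and 56.9, 53.7 and 52.5 CPM in WT. The KO clone 1 libraries lay under all others, and the KO clone 2 libraries lay just under those of WT. Its level fell in KO clone 1, with a log2 fold change of -0.37 (SE 0.045, adjusted p = 6.11e-09, edgeR). In KO clone 2 the value was -0.10 (95% interval -0.19 to -0.02, adjusted p = 0.067) and missed the threshold. Over the 15 settings tried it ran from -0.13 to -0.07, with adjusted p up to 0.306, and passed in 2. These were without KO clone 2 replicate 1 (-0.13, adjusted p = 0.0325) and without WT replicate 3 (-0.13, adjusted p = 0.0456).

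SLC29A2 (ENSG00000174669, chr11:66362521-66372214, minus strand) was called in the other clone and in the other direction. Its libraries held 78.2, 73.4 and 74.7 CPM in KO clone 1, 94.7, 89.4 and 88.2 CPM in KO clone 2, and 76.7, 66.5 and 69.3 CPM in WT. KO clone 1 and WT overlapped, and every KO clone 2 library lay above every other library. SLC29A2 rose in KO clone 2, with a log2 fold change of 0.36 (SE 0.043, adjusted p = 1.05e-08, edgeR). In KO clone 1 the value was 0.09 (95% interval 0.005 to 0.176, adjusted p = 0.108) and was called in 2 of the 15 settings tried. Without WT replicate 1 it was 0.15 (adjusted p = 0.00595), the highest of the settings. Without KO clone 1 replicate 1 it was 0.06 (adjusted p = 0.343). The antisense transcript B4GAT1-DT shares 279 exon bases with it, lay between 0.614 and 1.6 CPM and was not called.

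Within each library the ratio of SLC29A1 to SLC29A2, in CPM per kilobase of exon, was 0.340, 0.374 and 0.346 in KO clone 1, 0.350, 0.349 and 0.360 in KO clone 2, and 0.470, 0.511 and 0.479 in WT. The means were 0.353 ± 0.0182 in KO clone 1, 0.353 ± 0.00573 in KO clone 2 and 0.487 ± 0.0216 in WT (SD, n = 3 each). The ratio was thus lower in all 6 knockout libraries than in any WT library and had the same mean in both clones. The called gene of the pair was SLC29A1 in KO clone 1 and SLC29A2 in KO clone 2. These ratios were chosen with the levels known and were not tested. Their size depends on the exon length used, whereas the order of the groups does not. Over the length of 1 canonical transcript per gene, SLC29A1 stood at 26.1 and SLC29A2 at 28.85 CPM per kb in WT. Over all exons the WT values were 12.65 for SLC29A1 and 26.04 for SLC29A2.

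**Figure D2:**
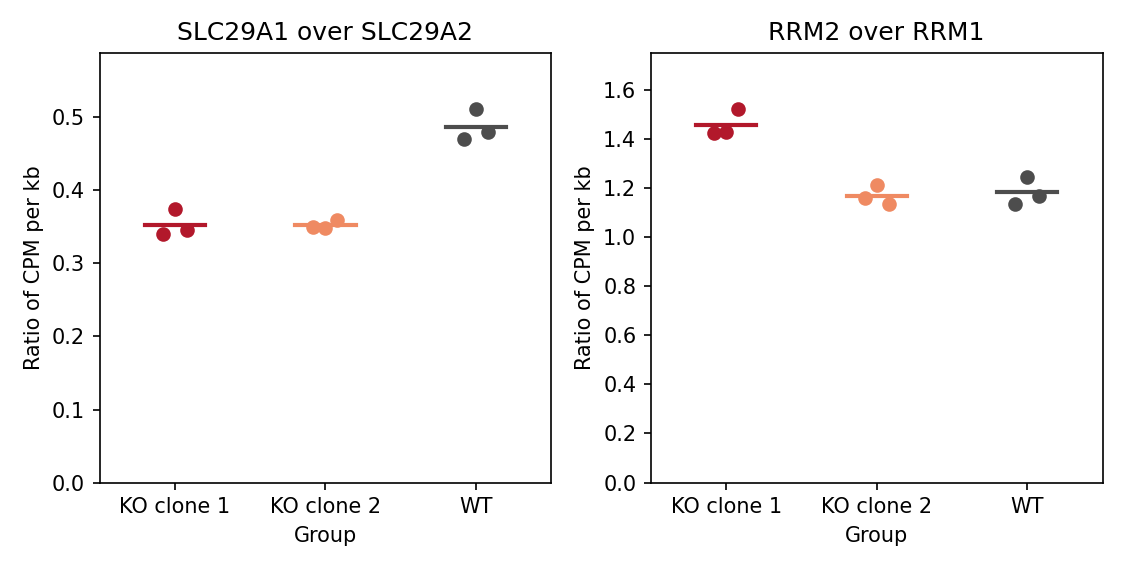
Ratio of SLC29A1 to SLC29A2 (left) and of RRM2 to RRM1 (right) in CPM per kilobase, with 1 point per library and a bar at the group mean, from 0. The transporter ratio averages 0.353 in both clones and 0.487 in WT, whereas the reductase ratio averages 1.46 in KO clone 1, 1.17 in KO clone 2 and 1.18 in WT. The size of each ratio depends on the exon length used, and the order of the groups does not.

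Activation was represented by DCK, which adds the first and rate-limiting phosphate to cytarabine, and CMPK1, which adds the next. DCK (ENSG00000156136, chr4:70992538-71030914, plus strand) held 33.6, 36.5 and 33.5 CPM in KO clone 1, 28.3, 28.9 and 27.7 CPM in KO clone 2, and 31.0, 32.8 and 34.6 CPM in WT. KO clone 1 overlapped WT, and the 3 KO clone 2 libraries lay under the rest. DCK fell in KO clone 2, to 86.4% of WT, with a log2 fold change of -0.21 (SE 0.054, adjusted p = 0.00203, edgeR). In KO clone 1 the value was 0.08 (95% interval -0.031 to 0.182, adjusted p = 0.306). The gene shares 199 exon bases on the same strand with MOB1B, which lay between 63.7 and 72.7 CPM and was not called in either clone.

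CMPK1 (ENSG00000162368, chr1:47333790-47394866, plus strand) held 116, 127 and 125 CPM in KO clone 1, 118, 129 and 131 CPM in KO clone 2, and 123, 129 and 134 CPM in WT. The 3 groups overlapped. Its log2 fold change was -0.06 in KO clone 1 (95% interval -0.143 to 0.013, adjusted p = 0.224, edgeR) and -0.03 in KO clone 2 (95% interval -0.107 to 0.048, adjusted p = 0.647).

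Inactivation was represented, beside SAMHD1, by CDA, DCTD and NT5C2. CDA, the cytidine deaminase that turns cytarabine into inactive ara-U, is annotated at chr1:20589086-20618903 on the plus strand (ENSG00000158825). It had 0 counts in all 6 knockout libraries and 1 count in WT, in replicate 1, where that equals 0.0261 CPM. A count of 0 over a group allows up to 0.0326 CPM in KO clone 1 and 0.0245 CPM in KO clone 2 (3 counts over the 3 libraries, counting error only), so no fold is given. CDA RNA was thus not detectable at this depth in the clones.

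DCTD, the deoxycytidylate deaminase that removes the monophosphate of cytarabine, lies at chr4:182890060-182917936 on the minus strand (ENSG00000129187). Its libraries held 35.8, 39.7 and 41.8 CPM in KO clone 1, 36.9, 35.3 and 35.8 CPM in KO clone 2, and 33.2, 33.8 and 33.9 CPM in WT. All 6 knockout libraries lay above all 3 WT libraries, and KO clone 1 replicate 1 was the lowest of its group. DCTD rose in KO clone 1, with a log2 fold change of 0.22 (SE 0.052, adjusted p = 0.000723, edgeR). The rise was 0.28 without that replicate (adjusted p = 5.58e-05) and 0.17 without KO clone 1 replicate 3 (adjusted p = 0.0231). In KO clone 2 the value was 0.10 (95% interval -0.002 to 0.201, adjusted p = 0.152).

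NT5C2, the cytosolic purine 5′-nucleotidase II that is studied as a source of resistance to nucleoside analogues, lies at chr10:103087185-103277605 on the minus strand (ENSG00000076685). It held 129, 124 and 135 CPM in KO clone 1, 128, 130 and 128 CPM in KO clone 2, and 125, 129 and 125 CPM in WT, and the groups overlapped. Its log2 fold change was 0.03 in KO clone 1 (95% interval -0.033 to 0.098, adjusted p = 0.494, edgeR) and 0.02 in KO clone 2 (95% interval -0.04 to 0.089, adjusted p = 0.647). CNNM2 shares 2724 exon bases with it on the opposite strand. Counting without strand left 7211 read pairs of NT5C2 in KO clone 1, 9440 in KO clone 2 and 8611 in WT, where strand-aware counting gave 11909 in KO clone 1, 15604 in KO clone 2 and 14138 in WT.

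The ratio of DCK to NT5C2 in CPM per kilobase, activation set against dephosphorylation, averaged 0.789 ± 0.07 in KO clone 1, 0.649 ± 0.00828 in KO clone 2 and 0.765 ± 0.0449 in WT (SD, n = 3 each). The ratio of DCK to SAMHD1 averaged 120 ± 23.4 in KO clone 1, 31.7 ± 2.78 in KO clone 2 and 13.5 ± 1.14 in WT, without overlap between the groups. DCK itself differed by at most 0.29 on the log2 scale between any 2 of the groups. These are ratios of RNA, and neither protein nor enzyme activity was measured. Their size depends on the exon length used.

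Ribonucleotide reductase was represented by its large subunit RRM1, which holds the catalytic site, and its small subunit RRM2, whose synthesis is tied to S phase. RRM1 (ENSG00000167325, chr11:4094707-4138932, plus strand) held 84.5, 86.4 and 81.4 CPM in KO clone 1, 81.8, 83.1 and 83.9 CPM in KO clone 2, and 83.1, 79.2 and 84.6 CPM in WT, with all groups overlapping. Its log2 fold change was 0.03 in KO clone 1 (95% interval -0.04 to 0.106, adjusted p = 0.547, edgeR) and 0.01 in KO clone 2 (95% interval -0.059 to 0.084, adjusted p = 0.846).

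RRM2 (ENSG00000171848, chr2:10120698-10211725, plus strand) held 260, 266 and 268 CPM in KO clone 1, 205, 218 and 206 CPM in KO clone 2, and 204, 213 and 213 CPM in WT. The KO clone 1 libraries lay above the rest, and KO clone 2 overlapped WT. RRM2 rose in KO clone 1, to 126% of WT, with a log2 fold change of 0.33 (SE 0.032, adjusted p = 1.62e-11, edgeR), and by 0.35 without KO clone 1 replicate 1. In KO clone 2 the value was -0.003 (95% interval -0.066 to 0.06, adjusted p = 0.959). The ratio of RRM2 to RRM1 in CPM per kilobase was 1.42, 1.43 and 1.52 in KO clone 1, 1.16, 1.21 and 1.14 in KO clone 2, and 1.14, 1.24 and 1.17 in WT and was higher in the 3 KO clone 1 libraries than in any other library. The ratio was not tested, and its size depends on the exon length used. The processed pseudogene RRM2P3, which can share sequence with RRM2, lay between 1.33 and 2.18 CPM and was not called, RRM2P2 reached at most 0.48 CPM, and RRM2P4 had no counts.

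**Figure D3:**
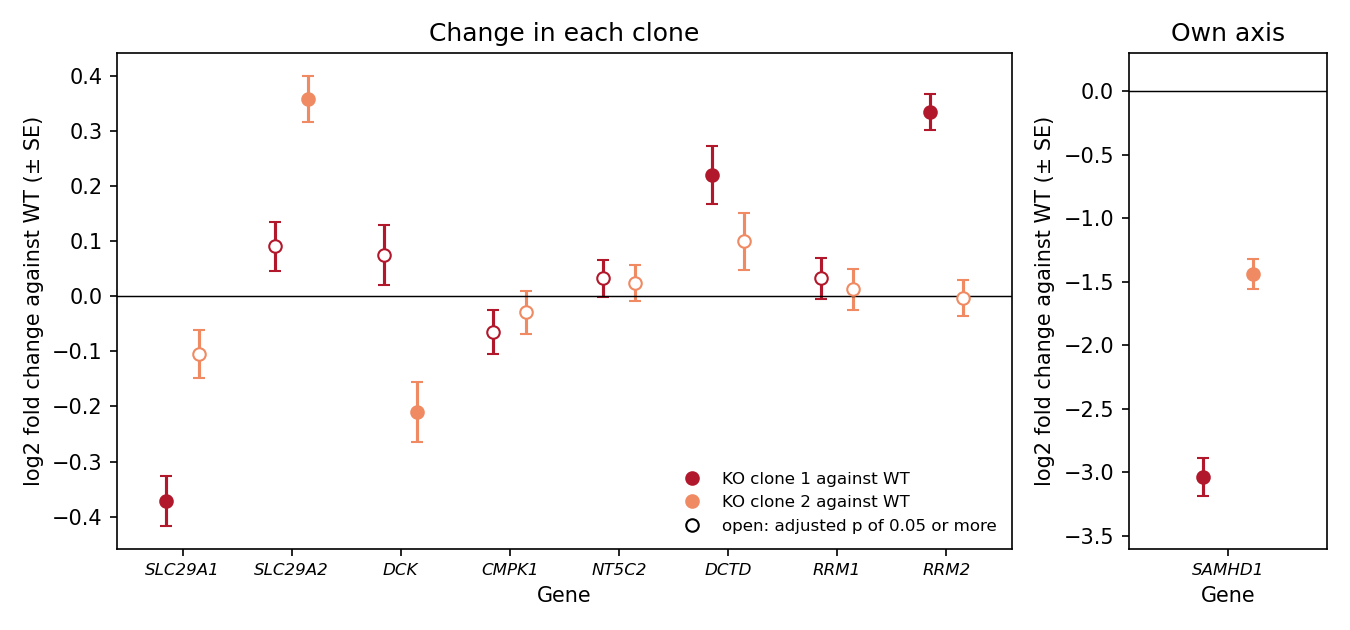
Log2 fold change against WT of the 9 tested genes in KO clone 1 and KO clone 2, with error bars of 1 SE. Filled points passed the adjusted p of 0.05 and open points did not, and SAMHD1 is drawn on its own axis at -3.04 in KO clone 1 and -1.44 in KO clone 2.

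The clones also differed from each other. In KO clone 1 against KO clone 2 the same test called 2 of the 9 members higher (DCK and RRM2) and 3 lower (SLC29A1, SLC29A2 and SAMHD1), against 25.9% of all tested genes, 12.6% higher and 13.4% lower. The libraries of the clones did not overlap for 5 members, against 37.7% of all tested genes. SAMHD1 was lower in KO clone 1 than in KO clone 2, with a log2 fold change of -1.60 (SE 0.166, adjusted p = 3.32e-10, edgeR), and the only member past the fold minimum, which 2.82% of all tested genes passed. RRM2 was higher by 0.34 (SE 0.032, adjusted p = 3.81e-11) and DCK higher by 0.29 (SE 0.055, adjusted p = 7.08e-05). SLC29A1 had -0.27 (SE 0.045, adjusted p = 1.03e-05) and SLC29A2 likewise -0.27 (SE 0.043, adjusted p = 6.33e-06), both lower in KO clone 1.

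DCTD had 0.12 between the clones (95% interval 0.019 to 0.222, adjusted p = 0.0829, edgeR). The value was 0.18 without KO clone 1 replicate 1 (adjusted p = 0.0123) and 0.07 without KO clone 1 replicate 3 (adjusted p = 0.458). DCTD was called there in 1 of the 15 settings tried. CMPK1 had -0.04 (adjusted p = 0.58), NT5C2 0.01 (adjusted p = 0.894) and RRM1 0.02 (adjusted p = 0.756). SAMHD1 was therefore the single member called in the same direction in both clones against WT. A fall in each clone was called for 11.0% of all tested genes and a rise in each for 8.52%.

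Set as the mean of both clones against WT, the test called 3 members higher (SLC29A2, DCTD and RRM2) and 2 lower (SLC29A1 and SAMHD1), against 35.3% of all tested genes, 16.4% higher and 18.9% lower. SAMHD1 alone passed the fold minimum, as did 6.53% of all tested genes. It had a log2 fold change of -2.24 (SE 0.110, adjusted p = 9.11e-21, edgeR), SLC29A1 -0.24 (adjusted p = 1.97e-06), SLC29A2 0.22 (adjusted p = 6.65e-06), RRM2 0.17 (adjusted p = 5.45e-06) and DCTD 0.16 (adjusted p = 0.00436). The libraries did not overlap for 3 members, against 24.9% of all tested genes. When the 6 knockout libraries were fitted as 1 group, the spread between clones entered the error in part. That fit still counted the 6 libraries as separate, though they came from 2 clones, so its p-values do not fully cover that spread. Only SAMHD1 (-1.99, adjusted p = 0.00962, edgeR) and SLC29A1 (-0.23, adjusted p = 0.0457) were called in that fit, SLC29A1 just under the threshold. SLC29A2 had an adjusted p of 0.0748, RRM2 of 0.283 and DCTD of 0.0688 (edgeR). The authors' deposited table, which holds 1 comparison of knockout with WT per gene, lists a log2 fold change of -2.01 for SAMHD1 (adjusted p = 0.000506). The authors' deposited table lists -0.225 for SLC29A1 (adjusted p = 0.0482) and 0.235 for SLC29A2 (adjusted p = 0.048). In the authors' deposited table RRM2 has 0.179 (adjusted p = 0.215) and DCTD 0.164 (adjusted p = 0.0701).

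Per kilobase of exon, which allows levels of different genes to be set side by side, the order in WT was CMPK1 at 29.0 CPM per kb, SLC29A2 at 26.0, RRM2 at 22.9, RRM1 at 19.4, NT5C2 at 13.8, SLC29A1 at 12.7, DCK at 10.6, DCTD at 10.03, SAMHD1 at 0.783 and CDA at 0.0106 CPM per kb. The library ranges of CMPK1 and SLC29A2 overlapped, as did those of DCK and DCTD. In KO clone 1 RRM2 at 28.9, SLC29A2 at 27.7 and CMPK1 at 27.7 CPM per kb overlapped at the top, and SLC29A1 at 9.78 CPM per kb stood below DCTD at 11.7 and DCK at 11.1. In KO clone 2 SLC29A2 led at 33.4 CPM per kb, over CMPK1 at 28.4 and RRM2 at 22.9, and DCK was the lowest of the 8 well expressed members at 9.13 CPM per kb. SAMHD1 stood at 0.0947 CPM per kb in KO clone 1 and 0.289 in KO clone 2. The order depends on the length used: over the length of 1 canonical transcript per gene, RRM2 led in every group, at 64.5 CPM per kb in WT.

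For the other named profiles, CAPN1 at 0.0363, LPCAT3 at 0.0406 and DNPEP at 0.0414 were closest to SLC29A1 by root mean square difference of centred log2 levels over the 9 libraries. CEP57L1 at 0.0295, MASTL at 0.0316 and CMPK2 at 0.0333 were closest to RRM2.

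Genes with related roles were read from lists set beside the members. The counts of all 6 lists stand beside 17.4% of all tested genes called higher and 18.8% called lower in KO clone 1, and 14.4% called higher and 16.1% called lower in KO clone 2. Among 10 other nucleoside carriers and drug exporters, 6 were tested, of which 5 fell and 0 rose in KO clone 1 and 3 fell and 1 rose in KO clone 2. Their median log2 fold change was -0.33 in KO clone 1 and -0.39 in KO clone 2. ABCC4, named here for its opposite calls, fell by 0.31 in KO clone 1 and rose by 0.16 in KO clone 2. ABCG2, a multidrug exporter of stem and progenitor cells, averaged 0.507 ± 0.0612 CPM in KO clone 1, 0.697 ± 0.136 CPM in KO clone 2 and 1.96 ± 0.483 CPM in WT (SD, n = 3 each). It fell by 1.95 on the log2 scale in KO clone 1 (adjusted p = 6.36e-08, edgeR) and by 1.51 in KO clone 2 (adjusted p = 1.71e-06). ABCC5, an exporter of nucleotide analogues, fell by 0.35 in KO clone 1 and 0.43 in KO clone 2, and SLC29A3, an intracellular nucleoside transporter, by 0.43 in KO clone 1 and 0.34 in KO clone 2. The concentrative transporters SLC28A1, SLC28A2 and SLC28A3 and the carrier SLC29A4 were at or under 0.19 CPM in every library and were not tested.

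Of 19 other nucleoside and nucleotide kinases, all tested, 5 rose and 6 fell in KO clone 1, and 6 rose and 4 fell in KO clone 2. AK4, a mitochondrial adenylate kinase, averaged 79.3 ± 2.82 CPM in KO clone 1, 117 ± 1.99 CPM in KO clone 2 and 143.5 ± 1.21 CPM in WT (SD, n = 3 each). It fell by 0.85 on the log2 scale in KO clone 1 (adjusted p = 1.03e-23, edgeR) and by 0.29 in KO clone 2 (adjusted p = 1.37e-09). NME3, a nucleoside diphosphate kinase, rose by 0.61 in KO clone 1 (adjusted p = 9.62e-05, edgeR) and by 0.82 in KO clone 2 (adjusted p = 3.59e-07).

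Of 12 other 5′-nucleotidases and nucleotide hydrolases, 9 were tested, of which 1 rose and 4 fell in KO clone 1 and 1 rose and 2 fell in KO clone 2. NT5C, a deoxyribonucleotidase, fell by 0.34 in KO clone 1 and 0.23 in KO clone 2, and NT5C3A, which dephosphorylates pyrimidine monophosphates, rose by 0.12 in KO clone 1 and 0.21 in KO clone 2. NUDT1, which clears oxidised nucleotides, had -0.18 in KO clone 1 (adjusted p = 0.206, edgeR) and fell by 0.36 in KO clone 2 (adjusted p = 0.00671).

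Of 13 genes of pyrimidine synthesis and breakdown, 11 were tested, of which 6 rose and 1 fell in KO clone 1 and 3 rose and 0 fell in KO clone 2. CAD, which opens pyrimidine synthesis, rose by 0.16 in KO clone 1 and 0.15 in KO clone 2, and UMPS, which ends uridylate synthesis, rose by 0.20 in KO clone 1 and 0.30 in KO clone 2. CTPS2, a CTP synthase, averaged 11.2 CPM in KO clone 1, 7.76 CPM in KO clone 2 and 7.005 CPM in WT. It rose by 0.68 in KO clone 1 (adjusted p = 1.5e-07, edgeR) and had 0.15 in KO clone 2 (adjusted p = 0.271).

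Of 15 DNA polymerase and replication stress genes, all tested, 7 rose and 4 fell in KO clone 1, and 3 rose and 1 fell in KO clone 2. POLE, the catalytic subunit of DNA polymerase epsilon, averaged 391 ± 11.0 CPM in KO clone 1, 352 ± 7.21 CPM in KO clone 2 and 222.5 ± 5.99 CPM in WT (SD, n = 3 each). It rose by 0.81 in KO clone 1 (adjusted p = 1.52e-22, edgeR) and by 0.66 in KO clone 2 (adjusted p = 1.98e-19). POLA1, a catalytic subunit of polymerase alpha, rose by 0.16 in KO clone 1 and 0.14 in KO clone 2, and SLFN11, which blocks stressed replication forks, fell by 0.28 in KO clone 1 and 0.24 in KO clone 2.

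Of 35 S phase genes, all tested, 16 rose and 6 fell in KO clone 1, and 9 rose and 2 fell in KO clone 2, none of them past the fold minimum. Their median log2 fold change was 0.10 in KO clone 1 and 0.06 in KO clone 2, values that stand beside 0.33 for RRM2 in KO clone 1 and -0.003 for RRM2 in KO clone 2. GINS1, a subunit of the replicative helicase, rose by 0.33 in KO clone 1 and 0.20 in KO clone 2. CDT1, which loads that helicase, rose by 0.28 in KO clone 1 and 0.23 in KO clone 2, and MCM10 by 0.26 in KO clone 1 and 0.17 in KO clone 2. Whether the S phase share of the cultures had a part in the RRM2 value was not tested.

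**Figure D4:**
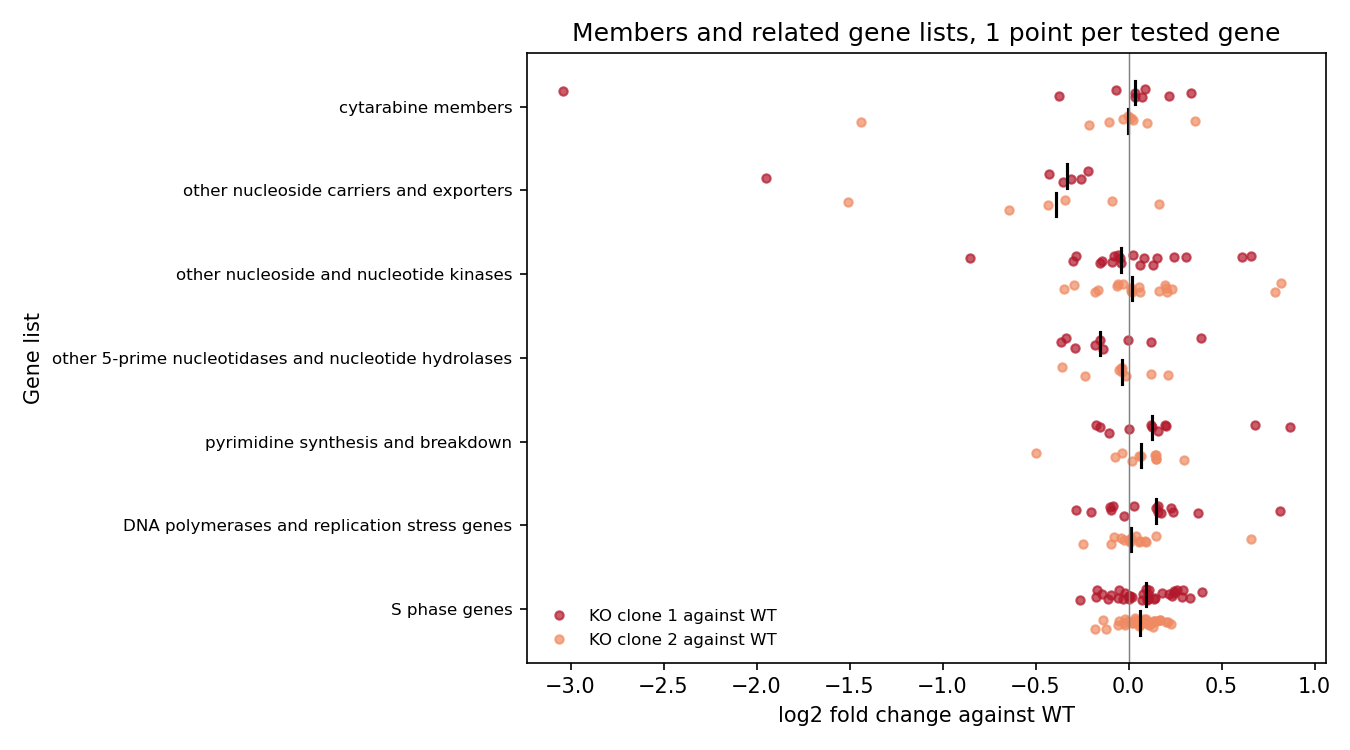
Log2 fold change against WT of each tested gene in the cytarabine genes and the 6 related lists, for KO clone 1 and KO clone 2, with 1 point per gene and a black tick at the list median. SAMHD1 is the point at -3.04 in KO clone 1 and -1.44 in KO clone 2, and ABCG2 the lowest of the carriers and exporters.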

How the data were processed

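RNA was measured by paired-end RNA-seq of total RNA in 9 libraries, 3 per group. Per the submitters' processing notes, STAR, DESeq2 and GRCh38 were used; versions and the annotation are not given in the sources used here. The authors deposited whole-number counts per gene for unstranded and both stranded readings, and a comparison table with log2 fold changes and adjusted p-values, which was used only where named; its 18 per-sample columns were not used. The second-strand counts were taken, since they held between 92.03% and 92.31% of stranded counts. Rows that name no gene were left out: assigned pairs were between 25.93% and 29.59% of all pairs, and pairs outside annotated genes between 32.73% and 38.75%.

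Counts were filtered (filterByExpr), TMM-scaled and fitted over all 9 libraries with edgeR 4.0.16 in R 4.3.3 (quasi-likelihood test, Benjamini-Hochberg adjustment over 20655 genes, threshold 0.05), with 1 coefficient per group. The 95% intervals are 1.96 SE to each side. The 15 alternatives were DESeq2 1.42.0, its size factors, no filter, unstranded counts, a fit of the compared groups alone, a replicate block and leaving out each library. Floors of 3 counts cover counting error only.

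Positions and exon lengths came from GENCODE release 44, which held 60463 of the 60605 identifiers, and promoters from RefSeq (GRCh38.p14). SLC29A2 has no entry there. Members and lists were chosen with earlier results of these data known. Named beside the members were the 3 genes of each list with the smallest adjusted p in the mean of both clones, overlapping genes and pseudogenes, and the 3 nearest profiles of the 3 members with the smallest adjusted p. A gene so named is not reported here.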

Additional observations from a re-analysis of the deposited data

Results flagged for a closer look

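The effect against WT differed between KO clone 1 and KO clone 2 for 5 members, by edgeR's quasi-likelihood test of KO clone 1 minus KO clone 2. The log2 difference was -1.60 for SAMHD1, which was lower in both clones. It was 0.34 for RRM2, which rose in KO clone 1, and 0.29 for DCK, which fell in KO clone 2. It was -0.27 for SLC29A1, which fell in KO clone 1, and -0.27 for SLC29A2, which rose in KO clone 2. All 5 differences were past the threshold in each of the 15 settings tried, KO clone 1 replicate 1 left out included. Each knockout group is 1 clone, so clone and culture cannot be told apart.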

How the results depend on the processing

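Over the 15 settings, 521 of 540 recomputed member values kept their direction and their side of the threshold. Fitting the 6 knockout libraries as 1 group left 2 members called in place of 5 and 4378 genes in place of 7282 for the 2 clones averaged. Leaving out 1 library gave 4 to 5 members called in KO clone 1 against WT, 3 to 4 in KO clone 2 against WT, 5 in the mean of both clones and 5 to 6 between the clones. Directions turned only for values near 0, and these missed the threshold. For NT5C2 between the clones, no filter gave -1.5e-05 and leaving out 1 library -0.0227 to 0.0378. Leaving out 1 library gave CMPK1 -0.0799 to 0.000697 between the clones and -0.0616 to 0.0125 in KO clone 2, RRM2 -0.0314 to 0.00956 in KO clone 2, and RRM1 -0.0147 to 0.0322 in KO clone 2 and -0.00468 to 0.0425 in the mean. The cause was not tested. Deviations of same-numbered libraries correlated at -0.014 to 0.012, and those of other pairs at -0.027 to 0.024, so no pairing by replicate number was seen. Such correlations over all tested genes cannot exclude a pairing. With the replicate block, 5 members were called in KO clone 1 against WT in place of 4 (SLC29A2 at 0.09, adjusted p = 0.0361, edgeR). The block gave 3 in KO clone 2, 5 in the mean and 5 between the clones. It called 7661, 6479, 7452 and 5530 genes in those comparisons, in place of 7475, 6293, 7282 and 5355. Depth limits CDA, and SAMHD1 in KO clone 1 rests on 95 read pairs.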
